A study of Mus musculus with 12 samples.

Results

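The platelet-derived growth factor (PDGF) genes were followed in CCN6KOT, a mouse breast cancer line grown as primary cells and labelled spindle metaplastic, a kind of breast carcinoma whose cells have taken on a spindle shape. The members are the 4 ligand genes Pdgfa, Pdgfb, Pdgfc and Pdgfd and the 2 receptor genes Pdgfra and Pdgfrb, taken by gene symbol as a whole family, and these 6 were found among the 55492 features of the count table. RNA-seq was made from 12 libraries in 4 groups of 3. Every group had been transduced with lentivirus and grown in medium with serum under puromycin selection. Vector carried the lentivirus control, whose sample titles also hold the term PPGS. DNTCF4 carried a dominant negative form of TCF4 (gene Tcf7l2), the factor through which beta-catenin switches on Wnt target genes. Its sample titles read DNTCF4-Vector, so this group is also labelled with a vector. DNTCF4_EZH2 carried DNTCF4 together with EZH2, the methyltransferase of the Polycomb complex PRC2, and DNTCF4_SET carried DNTCF4 together with a construct labelled SET. The labels expand neither PPGS nor SET. All groups come from 1 tumour line. Nothing in the labels shows that libraries of the same group were separate cultures, so a p-value here measures library-to-library spread alone, and that spread may be technical.

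PDGF ligands are secreted as disulphide-linked dimers that bring receptor chains together at the cell surface, so that the tyrosine kinases phosphorylate each other and recruit Src, PI3 kinase, phospholipase C gamma and the Ras pathway. PDGF-A acts through PDGFR alpha, PDGF-B through both receptors, PDGF-C mainly through PDGFR alpha and PDGF-D mainly through PDGFR beta, and the C and D ligands are latent until a protease removes their CUB domain. In the breast, PDGFR alpha and beta are usually marks of stroma, fibroblasts and pericytes, while tumour cells often secrete the ligands, and tumour cells of mesenchymal type can carry the receptors themselves.

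The stretch just upstream of a gene's start is shown for Pdgfd and Pdgfra, which were higher with DNTCF4, and for Pdgfc, which did not pass the test there. The 3 windows lie in RefSeq on GRCm38.p6 and were read 5′ to 3′ on the plus strand, on which all 3 genes lie; capitals mark a match to TATAAA.
Pdgfd, chr9:6168236-6168485: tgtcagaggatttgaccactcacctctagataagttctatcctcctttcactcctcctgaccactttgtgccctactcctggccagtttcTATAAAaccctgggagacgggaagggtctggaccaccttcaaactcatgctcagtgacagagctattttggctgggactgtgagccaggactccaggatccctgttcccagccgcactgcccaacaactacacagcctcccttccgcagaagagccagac
Pdgfra, chr5:75152001-75152250: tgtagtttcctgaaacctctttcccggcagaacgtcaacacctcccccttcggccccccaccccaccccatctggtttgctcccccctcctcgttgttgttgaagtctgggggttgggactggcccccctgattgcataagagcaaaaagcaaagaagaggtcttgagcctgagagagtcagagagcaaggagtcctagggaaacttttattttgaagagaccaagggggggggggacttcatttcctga
Pdgfc, chr3:81036166-81036415: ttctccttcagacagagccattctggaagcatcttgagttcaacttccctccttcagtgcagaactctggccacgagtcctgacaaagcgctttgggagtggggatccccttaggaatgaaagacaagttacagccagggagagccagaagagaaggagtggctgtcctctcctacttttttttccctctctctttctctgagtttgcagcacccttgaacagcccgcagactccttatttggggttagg
Both strands were searched for CTTTGA (the core of the TCF/LEF site), TGANTCA (AP-1), GGGCGG (the SP1 box), TATAAA (the TATA box) and TGACGTCA (CRE), which were found in 13.8%, 6.75%, 32.7%, 12.4% and 1.55% of the 32851 mouse promoters of the same length. The TATAAA of Pdgfd, at -160 to -155 counted from the RefSeq start, was the only match in the 3 windows. Both Pdgfa windows hold GGGCGG (at -60 to -55 in one, and at -93 to -88 and -86 to -81 in the other) and none of the other letters. They overlap exons of Pdgfa, and the latter also an exon of the gene 6330403L08Rik, so their letters are not shown. G and C made up 66.4% and 72.4% of them, against a median of 52.4% over all promoters, and GGGCGG is more likely in such windows. Pdgfb and Pdgfrb were not searched. A match describes the letters of a window and is no evidence of a bound factor.

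Tcf7l2 stood at 11 ± 2.48 CPM (counts scaled to library size with TMM factors) in Vector and at 39.8 ± 2.41 in DNTCF4 (SD, n = 3 in each), and at 45.5 and 35.2 CPM on average in DNTCF4_EZH2 and DNTCF4_SET. Ezh2 averaged 57.9 and 65.4 CPM in Vector and DNTCF4, 450 in DNTCF4_EZH2 and 546 in DNTCF4_SET. Library totals ran from 23597545 to 33999982 counts, and 15052 genes, with all 6 PDGF genes among them, had enough counts to be tested. Within DNTCF4 the chi-square statistic per degree of freedom was 20.7 and 13.1 between replicate 1 and the other libraries, and 3.33 between those. It was 16.3 between replicates 1 and 2 of DNTCF4_EZH2, and 6.33 and 6.09 for the other pairs of that group. The epithelial keratin gene Krt18 lay at 229 to 255 CPM and the mesenchymal gene Vim at 645 to 1020 CPM over the groups, while Epcam and Cdh1 averaged at most 1.01 CPM. Of the defining markers of other cells, Higd1b (pericytes) and Tyrobp (leukocytes) had 0 counts in all 12 libraries. The leukocyte marker Ptprc averaged 0.397 CPM in Vector and 0 to 0.0603 CPM in the other groups. Another, Adgre1, averaged 0 CPM in Vector and 0.0785 to 0.131 CPM in the other groups. Other markers of the same lists were present: of the 9 leukocyte markers, 4 of them tested, Cd68 averaged 53.1 to 67.4 CPM and Cd14 7.73 to 9.64 CPM over the groups, and of the pericyte markers Anpep averaged 65.9 to 79 CPM and Notch3 4.37 to 7.48 CPM. The summed leukocyte list averaged 63.6, 67, 78.3 and 71.6 CPM in Vector, DNTCF4, DNTCF4_EZH2 and DNTCF4_SET.

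The first comparison asks how the PDGF genes differ in cells with the dominant negative construct. Pdgfa, Pdgfb and Pdgfd rose, Pdgfra rose and Pdgfrb fell, and Pdgfc was not called. That is 5 of 6 members called at an adjusted p of 0.05, against 57.5% of all genes tested (29.5% higher and 28% lower), so changes were common in this comparison, and nothing particular to the PDGF genes is read from their count. In each of the 6 the libraries of the groups did not overlap, which held for 59.3% of all genes tested.

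Pdgfa (ENSMUSG00000025856, chromosome 5, 138976014 to 138997370, GRCm38) encodes the A chain, the ligand of PDGFR alpha. It was at 67.4, 72.1 and 68.6 CPM in the Vector libraries and at 124, 139 and 129 CPM in those of DNTCF4. All DNTCF4 libraries lay above all Vector libraries, and the gene rose 1.89-fold (log2 0.92, SE 0.0456, 95% interval 0.82 to 1.01, adjusted p = 1.77e-10). Its level was 130, 129 and 135 CPM in DNTCF4_EZH2 and 132, 135 and 137 CPM in DNTCF4_SET, which overlapped DNTCF4. Against DNTCF4 the log2 difference was 0.00 in the EZH2 group (interval -0.09 to 0.10, adjusted p = 0.973) and 0.04 in the SET group (-0.05 to 0.13, adjusted p = 0.546). The gene 6330403L08Rik overlaps exons of Pdgfa on the other strand. Its mean level was 37 CPM in Vector and 51.3 in DNTCF4, with 45.5 and 45.3 CPM in the EZH2 and SET groups, and it rose 1.39-fold in DNTCF4 (adjusted p = 1.54e-05). No source used here says whether reads were counted by strand, so reads of the 2 genes cannot be told apart where they overlap.

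Pdgfb (ENSMUSG00000000489, chromosome 15, 79995874 to 80014977) encodes the B chain, which binds both receptors and recruits pericytes to vessels. Its level was 13.9, 14.4 and 15.3 CPM in Vector and 23.1, 26.9 and 26.1 CPM in DNTCF4. It was 31.2, 32.3 and 33.2 CPM in DNTCF4_EZH2 and 31.6, 30.6 and 28.5 CPM in DNTCF4_SET. The Vector libraries were lowest and those of DNTCF4 lay between them and the other groups, without overlap. Pdgfb rose 1.75-fold from Vector to DNTCF4 (log2 0.80, SE 0.0681, adjusted p = 9.22e-08). It was a further 1.27-fold higher in DNTCF4_EZH2 than in DNTCF4 (log2 0.34, interval 0.21 to 0.48, adjusted p = 0.000862) and 1.19-fold higher in DNTCF4_SET (log2 0.25, interval 0.12 to 0.38, adjusted p = 0.00866). Without Vector replicate 2, DNTCF4 replicate 1 and DNTCF4_SET replicate 2 the difference of the SET group was 0.175 and no longer passed (adjusted p = 0.0602, and 0.00391 to 0.0602 over its 14 alternatives). Endothelial cells and platelets are known sources of PDGF-B. The 7 endothelial markers, 4 of them tested, summed to 3.4 to 4.81 CPM in Vector, 6.06 to 7.42 in DNTCF4, 4.48 to 5.49 with EZH2 and 5.68 to 7.52 with SET, and the 5 platelet markers, 3 of them tested, to 12 to 13.6, 10.3 to 11.2, 8.36 to 9.91 and 8.12 to 8.62 CPM. Their part in the Pdgfb values was not tested.

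Pdgfc (ENSMUSG00000028019, chromosome 3, 81036416 to 81214040) encodes a latent ligand of PDGFR alpha. Vector was at 41.7, 41.2 and 40.8 CPM and DNTCF4 at 40.8, 40.2 and 40.2, a log2 difference of -0.03 whose 95% interval ran from -0.12 to 0.06 (adjusted p = 0.573). The gene was at 34.2, 36 and 34.9 CPM in DNTCF4_EZH2, below every other library, and at 43.2, 43.8 and 40.9 CPM in DNTCF4_SET. It fell in DNTCF4_EZH2, to a level 1.15-fold lower than DNTCF4 (log2 -0.20, SE 0.0425, adjusted p = 0.00243), and it was 1.22-fold lower than in DNTCF4_SET (log2 -0.28, SE 0.0423, adjusted p = 0.00125). The Vector and DNTCF4 libraries met at 40.8 CPM and were apart only before rounding. In DNTCF4_SET the gene did not pass the test against DNTCF4 (log2 0.08, interval -0.01 to 0.17, adjusted p = 0.198).

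Pdgfd (ENSMUSG00000032006, chromosome 9, 6168584 to 6378850) encodes the latent ligand of PDGFR beta and was the scarcest member in all groups. The Vector libraries held 7, 7 and 6 counts (0.264, 0.259 and 0.252 CPM), and those of DNTCF4 held 61, 60 and 41 counts (2.33, 1.91 and 1.5 CPM). All DNTCF4 libraries were higher, and the gene rose 7.29-fold (log2 2.87, SE 0.255, interval 2.32 to 3.41, adjusted p = 1.61e-07), the largest fold of the 6 members in this comparison. Every Vector count was below the filter's minimum of 10 counts. Pdgfd thus entered the test only through the groups with DNTCF4, where it was high, which limits what its test against Vector can add. On the deposited rlog scale, which shrinks differences, most strongly at few counts, its log2 difference was 0.325 and still passed (limma, adjusted p = 2.07e-05). DNTCF4_EZH2 was at 2.96, 2.61 and 2.39 CPM and DNTCF4_SET at 2.22, 2.75 and 2.49 CPM, the latter overlapping DNTCF4. Against DNTCF4 Pdgfd rose 1.39-fold in the EZH2 group (log2 0.48, interval 0.12 to 0.83, adjusted p = 0.0478). This call was lost in 9 of 14 alternatives, over which the adjusted p ran from 0.0131 to 0.175. Among these were the fits without DNTCF4 replicate 2 (0.479, adjusted p = 0.0861) or 3 (0.34, adjusted p = 0.175) and without DNTCF4_EZH2 replicate 1 (0.391, adjusted p = 0.174), 2 (0.49, adjusted p = 0.0931) or 3 (0.546, adjusted p = 0.0551). The difference of the SET group did not pass (log2 0.38, interval 0.02 to 0.74, adjusted p = 0.118), and without DNTCF4 replicate 1 it did (log2 0.528, adjusted p = 0.0354, and 0.0354 to 0.354 over 14 alternatives).

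**Figure D1:**
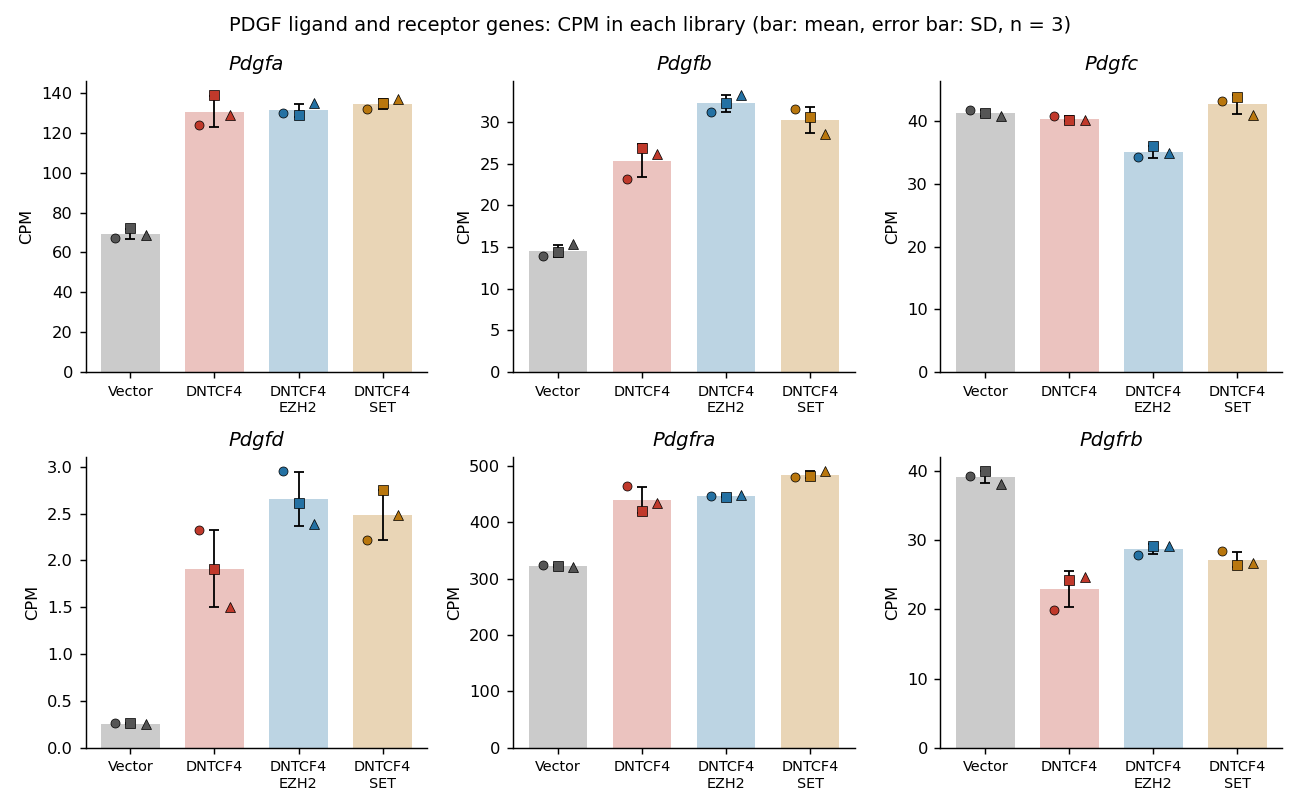
Level of each PDGF gene (y axis, CPM) in the 12 libraries by group (x axis); bars are means, error bars SD (n = 3), and circles, squares and triangles are replicates 1, 2 and 3. Each panel has its own axis from 0; Pdgfa, Pdgfb, Pdgfd and Pdgfra were lowest in Vector, Pdgfrb was highest there, at 38.2 to 40 CPM, and Pdgfc was lowest in DNTCF4_EZH2.

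Pdgfra (ENSMUSG00000029231, chromosome 5, 75152292 to 75198215) encodes PDGFR alpha, the receptor for the A, B and C chains, and was the most abundant receptor. It was at 325, 322 and 321 CPM in Vector and at 464, 420 and 435 CPM in DNTCF4. All DNTCF4 libraries lay above Vector, and the gene rose 1.36-fold (log2 0.45, SE 0.0355, adjusted p = 4.31e-08). The EZH2 group, at 447, 445 and 448 CPM, overlapped DNTCF4 (log2 0.02, interval -0.05 to 0.10, adjusted p = 0.685). The SET group, at 481, 482 and 492 CPM, lay above all other libraries and was 1.10-fold higher than DNTCF4 (log2 0.14, interval 0.07 to 0.22, adjusted p = 0.00819), a call lost when only these 6 libraries were fitted (0.149, adjusted p = 0.0536, and 3.37e-05 to 0.0536 over 14 alternatives).

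Pdgfrb (ENSMUSG00000024620, chromosome 18, 61045150 to 61085061) encodes PDGFR beta, the receptor for the B and D chains and a pericyte and fibroblast marker. It was at 39.3, 40 and 38.2 CPM in Vector and at 19.9, 24.2 and 24.7 CPM in DNTCF4. It was the only member that fell with DNTCF4, to a level 1.7-fold lower (log2 -0.77, SE 0.0678, adjusted p = 1.4e-07). The EZH2 group was at 27.9, 29.1 and 29.2 CPM and the SET group at 28.4, 26.4 and 26.7 CPM, above every DNTCF4 library and below every Vector library. Against DNTCF4 Pdgfrb rose 1.25-fold with EZH2 (log2 0.32, interval 0.18 to 0.47, adjusted p = 0.00277) and 1.18-fold with SET (log2 0.24, interval 0.09 to 0.39, adjusted p = 0.0177). DNTCF4 replicate 1 held the lowest Pdgfrb value of its group. Without it the SET difference was 0.147 and still passed (adjusted p = 0.0406), while without DNTCF4_SET replicate 1 it was 0.209 and did not (adjusted p = 0.0832), nor with only these 6 libraries (0.249, adjusted p = 0.0775). Over 14 alternatives the adjusted p of this difference ran from 0.00569 to 0.0832.

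Pdgfrb is known as a pericyte marker, and of 8 other pericyte markers 3 had enough counts to be tested. The summed level of the 8 ranged from 86.1 to 89.1 CPM in Vector, from 68.3 to 79.4 in DNTCF4, from 70.8 to 76.1 with EZH2 and from 75.9 to 82.3 with SET, most of it from Anpep. The summed level of the 12 fibroblast or mesenchymal markers, 8 of them tested, ranged from 2950 to 3220 CPM in Vector, from 1610 to 1660 in DNTCF4, from 2060 to 2120 with EZH2 and from 1950 to 2010 with SET, with Twist1 at 0 in all 12 libraries. Both sums were highest in Vector, as was Pdgfrb. The fibroblast sum came mostly from Vim, Col1a1 and Col1a2, and other genes of that list had higher means in DNTCF4 than in Vector: Dcn at 325 against 76.1 CPM, Prrx1 at 87.4 against 19.8 CPM and Zeb1 at 87.2 against 74.2 CPM. In a bulk sample fewer cells of a type and less RNA per cell cannot be told apart, and the part of such cells in the Pdgfrb values was not tested.

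The next comparisons ask what EZH2 or SET changes on top of DNTCF4. Both use the same 3 DNTCF4 libraries, so their values are given side by side and are not independent. These libraries also enter DNTCF4 against Vector, so a deviation in them moves that difference and the later ones in opposite directions. The list genes named further on were picked by their change in DNTCF4 against Vector, so a move back towards Vector may be partly selection. Ezh2 counts were higher than in DNTCF4 in both groups, 6.88-fold with EZH2 and 8.34-fold with SET. The EZH2 and SET groups are therefore not a contrast of raised against unraised Ezh2. With EZH2, 4 members were called (Pdgfb, Pdgfd and Pdgfrb higher, Pdgfc lower) against 25.5% of all genes tested (13% higher, 12.5% lower). With SET, 3 were called (Pdgfb, Pdgfra and Pdgfrb, all higher) against 26% of all genes (12.7% higher, 13.3% lower). The groups did not overlap in 4 members in each, against 39.1% and 37.2% of all genes. Against Vector, with which DNTCF4 was also compared, the EZH2 group had 4 members higher and 2 lower, where 57.7% of all genes were called (28.7% higher, 29% lower), and the SET group 4 higher and 1 lower, where 58% were (28.1% higher, 29.9% lower). The groups did not overlap in 6 members with EZH2 and 5 with SET, against 68.1% and 66.1% of all genes. For Pdgfa, Pdgfb, Pdgfc, Pdgfd, Pdgfra and Pdgfrb in that order, the log2 differences from Vector were 0.92, 1.15, -0.23, 3.34, 0.47 and -0.45 with EZH2. With SET they were 0.96, 1.05, 0.05, 3.24, 0.59 and -0.53, of which the 0.05 of Pdgfc did not pass (adjusted p = 0.355). Pdgfb thus stood 2.21-fold and 2.08-fold above Vector, and Pdgfrb 1.36-fold and 1.44-fold below it.

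Between DNTCF4_EZH2 and DNTCF4_SET, Pdgfc was the only member called, against 5.16% of all genes tested (3% higher, 2.17% lower); 2 members did not overlap, against 31.8%. The 777 genes behind the 5.16% became 359 to 439 when 1 library of these groups was left out in turn and 2177 when only their 6 libraries were fitted. Pdgfra lay lower in every EZH2 library than in every SET library (log2 -0.12, interval -0.19 to -0.04, adjusted p = 0.0681); it passed in 5 of 14 alternatives, among them DESeq2's test (adjusted p = 0.00224, and 0.00205 to 0.22 over the 14). The other 4 members did not pass, and their 95% intervals were -0.13 to 0.06 for Pdgfa, -0.04 to 0.22 for Pdgfb, -0.24 to 0.44 for Pdgfd and -0.06 to 0.22 for Pdgfrb.

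**Figure D2:**
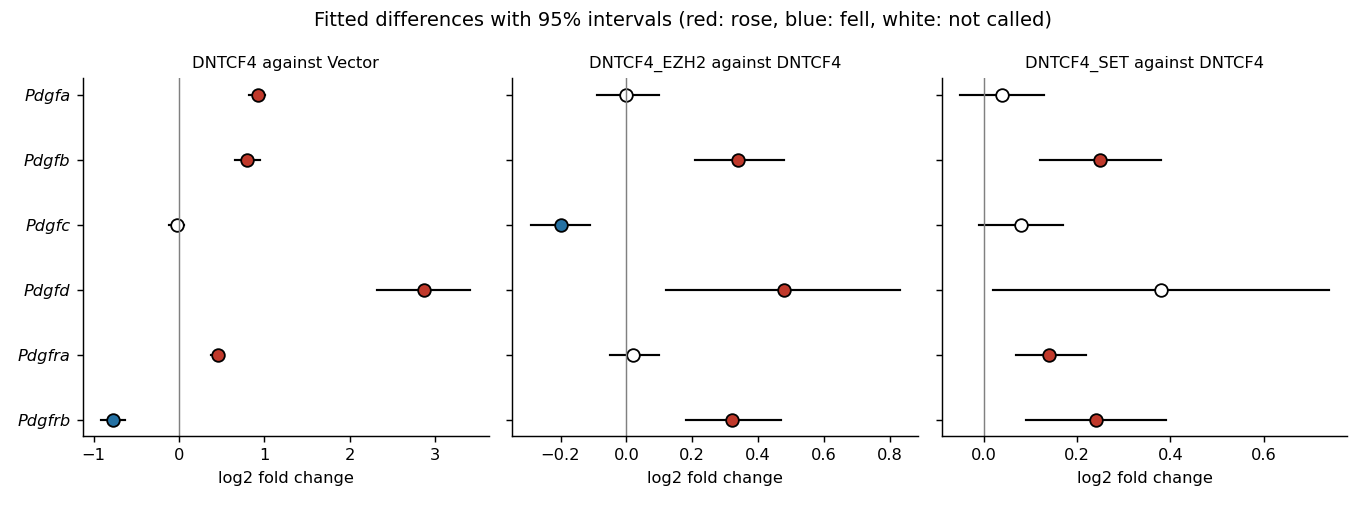
Fitted log2 fold change (x axis) of the 6 PDGF genes (y axis) in 3 comparisons, with 95% intervals from edgeR; red points rose, blue fell, white were not called, and the 3 axes differ in range. With DNTCF4, Pdgfd has the largest rise, at 2.87, and Pdgfrb, at -0.77, is the only fall; on top of DNTCF4 no difference is larger than 0.48.

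Levels of different genes were compared per length, as CPM per kb of the union of a gene's exons. In Vector the order was Pdgfra at 32.2 CPM per kb, Pdgfa at 22.2, Pdgfc at 8.1, Pdgfrb at 7.15, Pdgfb at 3.5 and Pdgfd at 0.0818, and no neighbours overlapped. In DNTCF4 Pdgfra (43.9 ± 2.22) and Pdgfa (42 ± 2.47) overlapped, and Pdgfb, at 6.09, stood above Pdgfrb, at 4.19. In DNTCF4_EZH2 Pdgfra (44.6 ± 0.124) lay above Pdgfa (42.1 ± 0.957), but the pair overlapped when levels were divided by the length of the longest transcript. There Pdgfb, at 7.74 CPM per kb, also stood above Pdgfc, at 6.89, whereas in DNTCF4_SET Pdgfc, at 8.38, was above Pdgfb, at 7.26. Pdgfd was last in all 4 groups.

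The 4 ligands together came to 33.9 ± 0.773 CPM per kb in Vector (SD, n = 3, as for the values that follow) and 56.6 ± 2.8 in DNTCF4, with 57.6 ± 1.04 and 59.6 ± 0.584 in the EZH2 and SET groups. Pdgfa made up 65.6% ± 0.839 of this sum in Vector and 74.1% ± 0.69 in DNTCF4, and Pdgfc 23.9% ± 0.699 and 14% ± 0.784. Pdgfb was at 10.3% ± 0.498 in Vector and 10.8% ± 0.461 in DNTCF4, which overlapped, and at 13.4% ± 0.255 with EZH2. Pdgfd went from 0.241% ± 0.00901 to 1.08% ± 0.261 of the ligand sum. Among the receptors Pdgfra held 81.8% ± 0.303 of the sum in Vector and 91.3% ± 1.27 in DNTCF4, with 89.5% ± 0.26 and 90.7% ± 0.381 in the EZH2 and SET groups. The ratio of Pdgfra to Pdgfrb per length was 4.5 ± 0.0912 in Vector and 10.6 ± 1.84 in DNTCF4, where replicate 1 had the highest ratio, at 12.7. These shares are descriptions of each library and were not tested.

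**Figure D3:**
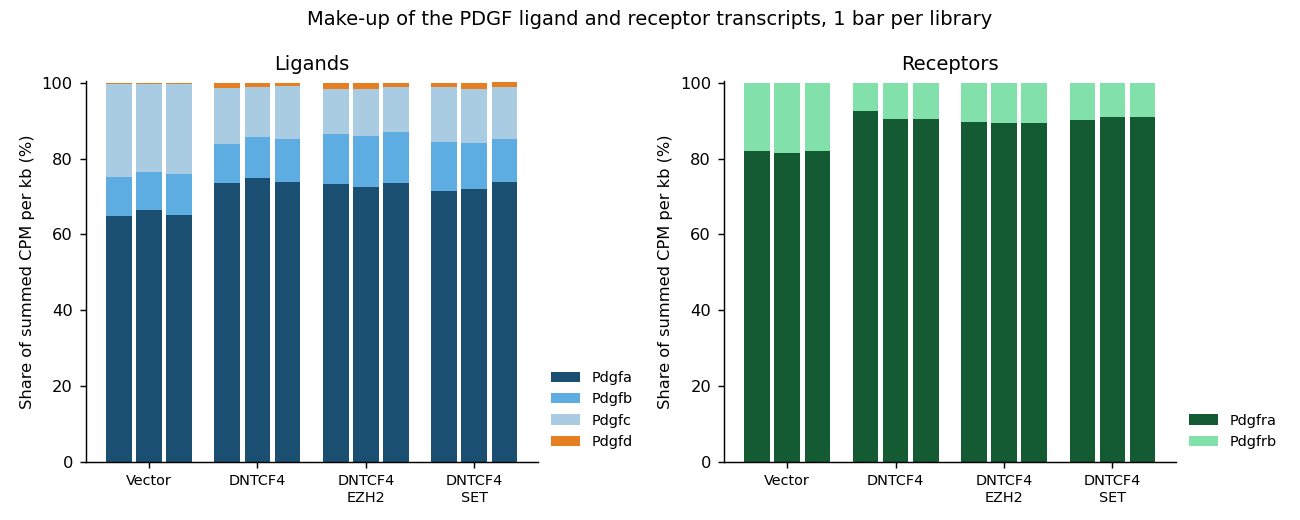
Share of each ligand in the summed ligand level (left) and of each receptor in the summed receptor level (right), in percent of CPM per kb (y axis), 1 bar per library in replicate order, by group (x axis). Pdgfa and Pdgfra take a larger share in every library with DNTCF4 than in Vector, and Pdgfc and Pdgfrb a smaller one.

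Of 7 genes related to the PDGF receptors, 6 receptor kinase genes and the receptor-like Pdgfrl, 6 were tested. With DNTCF4 3 rose and 0 fell, against 29.5% and 28% of all genes, and the median log2 difference was 0.44 against 0.01 over all genes. Flt1, a VEGF receptor, rose 3.03-fold from 32 to 97.1 CPM (adjusted p = 4.47e-14) and Flt3, a cytokine receptor kinase, 1.96-fold from 4.53 to 8.87 CPM (adjusted p = 3.37e-07). Kdr, the main VEGF receptor, rose 3.24-fold at a low level, from 0.191 to 0.634 CPM (adjusted p = 0.00253). With 5, 7 and 3 counts in Vector, Kdr also passed the low-count filter only through the groups with DNTCF4. Pdgfrl, which encodes a receptor-like protein without a kinase domain, was at 11.8 CPM in Vector and 10.7 in DNTCF4 (adjusted p = 0.138), and it rose 1.26-fold with EZH2 (adjusted p = 0.00444) and 1.3-fold with SET (adjusted p = 0.00191). Csf1r (1.3 and 1.22 CPM, adjusted p = 0.746) and Flt4 (0.401 and 0.365 CPM, adjusted p = 0.778) were not called in DNTCF4. Kit had 14 counts in the Vector libraries together and 0 in those of DNTCF4, too few to be tested.

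Of 12 tested genes that process or bind PDGF ligands, 3 rose and 6 fell with DNTCF4, where 29.5% of all genes rose and 28% fell (median log2 -0.12 against 0.01 over all genes). Dcn, which encodes the matrix proteoglycan decorin, rose 4.27-fold from 76.1 to 325 CPM (adjusted p = 5.09e-15), and Nrp2, a co-receptor gene, rose 1.49-fold (adjusted p = 2.18e-10). Nrp1, which encodes the related neuropilin 1, fell 3.38-fold (adjusted p = 6.29e-10) and the thrombospondin gene Thbs1 2.59-fold (adjusted p = 5.7e-14). With EZH2 9 of the 12 rose and 1 fell (median 0.37), where 13% of all genes rose and 12.5% fell. With SET it was also 9 and 1 (median 0.34), where 12.7% of all genes rose and 13.3% fell, and the median over all genes was 0.00 in each. Nrp1 rose 1.73-fold with EZH2 and 1.54-fold with SET, Thbs1 1.38-fold and 1.48-fold, and both stayed below Vector, at 9.32 and 8.32 CPM against 18.2 for Nrp1. Dcn and Nrp2, already above Vector in DNTCF4, moved further from it. Dcn rose 1.43-fold with EZH2 and 1.47-fold with SET, and Nrp2 1.12-fold and 1.14-fold.

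Of 35 receptor-proximal signalling genes tested, 14 rose and 9 fell with DNTCF4 (median 0.09), against 29.5% and 28% of all genes. Stat3 rose 1.39-fold (adjusted p = 3.71e-09) and the Src family kinase gene Yes1 1.34-fold (adjusted p = 5.01e-05). Pik3r1, the regulatory subunit of PI3 kinase that binds the receptors, fell to a level 1.42-fold lower (adjusted p = 1.23e-08), and Hras was 1.40-fold lower (adjusted p = 3.53e-06). With EZH2 7 of the 35 rose and 4 fell, against 13% and 12.5% of all genes, and with SET 6 and 3, against 12.7% and 13.3%; nothing particular to this list is read from these counts.

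Of 21 genes that dampen the receptors 8 rose and 8 fell with DNTCF4 (median 0.03), against 29.5% and 28% of all genes. The ubiquitin ligase gene Cblb rose 1.65-fold (adjusted p = 1.44e-09) and the ERK phosphatase gene Dusp5 1.49-fold (adjusted p = 2.55e-08), while Dusp6, another ERK phosphatase, was 1.58-fold lower (adjusted p = 4.42e-10) and Spry1, a Sprouty inhibitor of Ras signalling, 1.61-fold lower (adjusted p = 0.000424). Dusp5 then fell with EZH2, to a level 1.56-fold below DNTCF4 (adjusted p = 4.34e-08), and with SET, to 1.43-fold below (adjusted p = 7.61e-07). Spry1 rose in both, 1.44-fold (adjusted p = 0.00858) and 1.73-fold (adjusted p = 0.000434). Inpp5d, named after its values were seen, had the largest log2 difference of these genes in DNTCF4 against Vector, 3.83 (adjusted p = 0.000246), at a level under 1 CPM.

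Of 28 genes that respond to growth factors in general 10 rose and 13 fell with DNTCF4 (median -0.11), against 29.5% and 28% of all genes. Ccl2, a chemokine gene known to be induced by PDGF, rose 3.18-fold (adjusted p = 7.09e-14), and the neighbouring chemokine gene Ccl7 rose 6.4-fold (adjusted p = 1.17e-12). The early response genes Egr1 and Egr3 were 2.78-fold (adjusted p = 3.89e-10) and 2.56-fold lower (adjusted p = 0.00123). With EZH2 2 of the 28 rose and 11 fell (median -0.12), where 13% of all genes rose and 12.5% fell. With SET 0 rose and 12 fell (median -0.16), where 12.7% rose and 13.3% fell, and the median over all genes was 0.00 in each. Ccl7 fell in both, to levels 1.36-fold (adjusted p = 0.000246) and 1.26-fold lower than DNTCF4 (adjusted p = 0.00278). Ccl2 was 1.18-fold lower with EZH2 (adjusted p = 0.000399) and was not called with SET (adjusted p = 0.114). Egr1 rose 1.29-fold with EZH2 (adjusted p = 0.00329) and was 1.22-fold lower with SET (adjusted p = 0.0205). Egr3 was called in neither (adjusted p = 0.572 and 0.326).

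**Figure D4:**
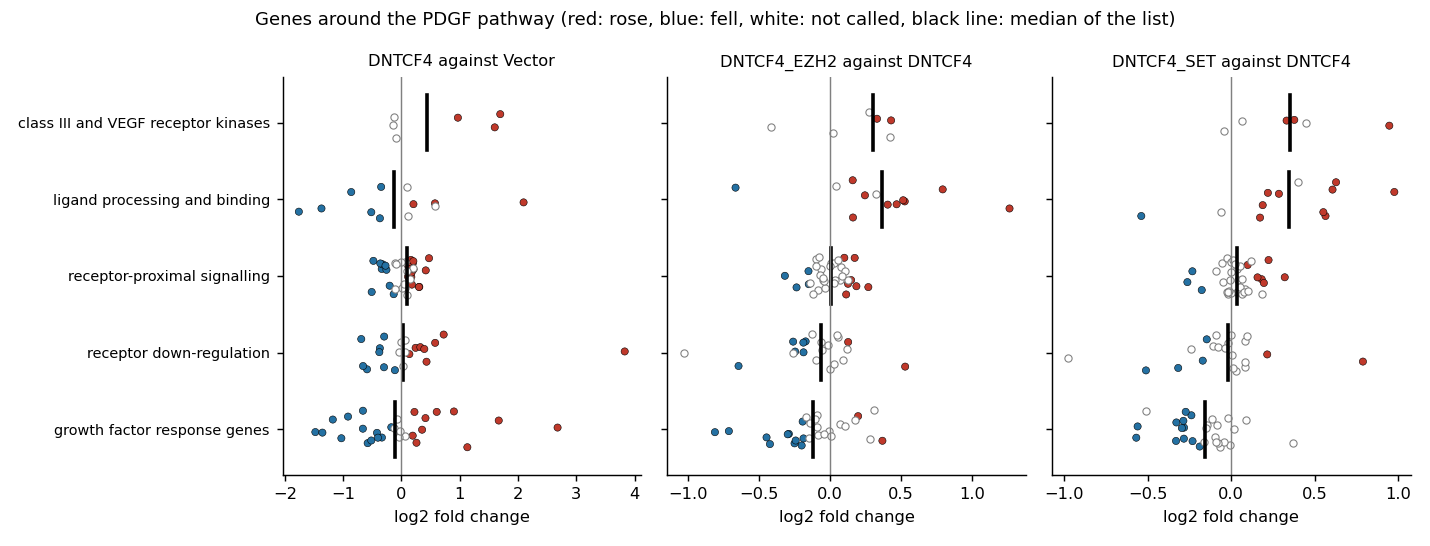
Log2 fold change (x axis) of each tested gene in 5 lists around the PDGF pathway (y axis, 1 point per gene, spread vertically only to separate points) in 3 comparisons; red rose, blue fell, white was not called, and black lines are list medians. The ligand processing and binding list has its median at -0.12 with DNTCF4 and at 0.37 and 0.34 when EZH2 or SET is added; the 3 axes differ in range.

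The genes whose rise and fall over the 12 libraries was most like each member's were named by Pearson's r of log2 CPM. They were taken from 11713 tested genes with a mean of at least 1 CPM. Predicted gene models (Gm followed by digits), names ending in Rik and features without a gene name had been left out of these. The value of r does not measure level or size of change. From Vector to DNTCF4, Lrfn3, the gene nearest to Pdgfa, went from 0.129 to 2.51 CPM, and Pdgfa from 69.4 to 131 CPM. The points share the same 4 groups and libraries, so r is a description. For Pdgfa they were Lrfn3 (r = 0.9966), Stc2 (0.9963) and Rnd1 (0.9955), and for Pdgfb Col18a1 (0.9978), Ttyh3 (0.9947) and Kcnn1 (0.9946). For Pdgfd they were Dcn (0.9929), Prxl2a (0.9928) and Flt1 (0.9925), and for Pdgfra Slc31a1 (0.9950), Gtf2b (0.9949) and Sh3glb1 (0.9944). For Pdgfrb they were Efemp2 (0.9903), Trappc9 (0.9882) and Ctsd (0.9879). An r of at least 0.9 was reached by 1362 genes for Pdgfa, 1151 for Pdgfb, 1296 for Pdgfd, 1241 for Pdgfra and 604 for Pdgfrb, so such a pattern was common. For Pdgfc 1 gene reached 0.9, Dap3 (r = 0.9172), followed by Ifi27 (0.8974) and Nub1 (0.8947).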

How the data were processed

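The sample titles gave each library's group and replicate number. The authors deposited expected counts, estimated per gene and not normalized, which were already whole numbers, for 55492 features, and DESeq2 rlog values, regularised log2 counts, for 21754 genes. Per the submitters' processing notes, the tools were STAR 2.7.8a and RSEM 1.3.3 with cutadapt 2.3, FastQC 0.11.8 and DESeq2, and the build was GRCm38; settings and strand are not given in the sources used here. RSEM shares reads that map to several genes, which can move values of overlapping genes.

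After edgeR's filterByExpr (at least 10 counts, total of 15) 15052 genes were tested. The minimum is scaled to library size and must be met in as many libraries as a group holds. A gene can therefore pass through a single group. All 12 libraries entered a single edgeR 4.0.16 model (R 4.3.3) with TMM factors and group means, and each contrast was tested by quasi-likelihood, two-sided, with Benjamini-Hochberg adjustment over all genes tested and a threshold of 0.05 (8 residual degrees of freedom, biological coefficient of variation 5.17%). The SE is the log2 fold change divided by the square root of the F statistic. Lengths and positions came from GENCODE M21, which matched 55227 identifiers. Totals of 23597545 to 33999982 counts leave the low counts of Pdgfd least precise. Library pairs within groups all exceeded sampling noise (chi-square divided by its degrees of freedom from 2.59 to 20.7), and each was kept. The test was also run on counts simulated from its own fitted spread, with far fewer genes changed than in these data. That run cannot show how well the test is calibrated here.

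The members and gene lists were chosen with earlier results of these data known. Named were the members, their 3 most alike genes, all related kinases and, of each list, up to 2 genes each way with the largest called change in DNTCF4 against Vector and a mean of at least 1 CPM in the higher group. The alternatives tried were size factors of DESeq2 within edgeR, DESeq2 1.42.0 itself (Wald test), limma 3.58.1 fitted to the rlog values, other low-count filters, a block for the replicate number, a fit of the 6 compared libraries alone, a fit without 3 libraries named from earlier results of these data (Vector replicate 2, DNTCF4 replicate 1 and DNTCF4_SET replicate 2, of which only DNTCF4 replicate 1 also stood apart in its group by chi-square), each library left out in turn, and transcript length in place of exon length.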

Additional observations from a re-analysis of the deposited data

How the results depend on the processing

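Each of the 36 member comparisons was recomputed under 14 alternatives. Of the 336 alternatives of the 24 comparisons with a call, 323 kept direction and call, 13 lost the call and 0 changed direction. Of the 168 of the 12 without a call, 155 kept that state, 6 passed the test and 7 changed sign around 0. The calls lost were 9 of Pdgfd in DNTCF4_EZH2 against DNTCF4 and 4 of Pdgfb, Pdgfra and Pdgfrb in DNTCF4_SET against DNTCF4, given above; the cause was not tested. The changes of sign were of Pdgfa in DNTCF4_EZH2 against DNTCF4 (-0.039 without Vector replicate 2, DNTCF4 replicate 1 and DNTCF4_SET replicate 2 together, -0.036 without DNTCF4 replicate 1, -0.002 without DNTCF4 replicate 3 and -0.016 without DNTCF4_EZH2 replicate 3, with 0.052 as the highest value when 1 library was left out), of Pdgfa in DNTCF4_SET against DNTCF4 (-0.003 without these 3 libraries and 0 without DNTCF4 replicate 1, highest 0.087) and of Pdgfra in DNTCF4_EZH2 against DNTCF4 (-0.008 without DNTCF4 replicate 2, highest 0.061). On the deposited rlog values the called differences came out smaller, also for members with many counts. The DNTCF4 against Vector differences were 0.586 for Pdgfa (0.917 in the main fit), 0.441 for Pdgfb (0.804), 0.325 for Pdgfd (2.866), 0.296 for Pdgfra (0.448) and -0.468 for Pdgfrb (-0.77), all still called by limma. With EZH2 against DNTCF4 they were 0.212 for Pdgfb, -0.124 for Pdgfc, 0.122 for Pdgfd and 0.194 for Pdgfrb, also called.

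Same-numbered libraries did not pair: their deviations correlated at -0.174 to 0.146, over 0.1 in 1 of 18 pairs, and 3 of 12 libraries were nearest to their own number. With the replicate block 8584 genes changed in DNTCF4 against Vector (8653 without it), and the log2 difference of Pdgfd in DNTCF4_EZH2 against DNTCF4 was 0.479 (adjusted p = 0.0526); no other call of a member changed under the block.

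With only the 6 libraries compared, 2532 genes changed in DNTCF4_SET against DNTCF4 (3914 in the full fit) and 2177 in DNTCF4_EZH2 against DNTCF4_SET (777 in the full fit). The latter was 1495 without the 3 libraries named above and 359 to 439 leaving out 1 library in turn. On rlog values, which cover 21754 genes, 44.2% of the genes changed in DNTCF4 against Vector were higher, against 51.3% in the main fit of 15052 genes. The share was also lower with the DESeq2 Wald test (44%) and in edgeR without the low-count filter (42.1%), so it was not particular to rlog values. With the longest transcript as length the order of the shares was the same, with Pdgfa at 66.8%, 75.4%, 74.6% and 73.8% of the ligands in Vector, DNTCF4, DNTCF4_EZH2 and DNTCF4_SET, Pdgfd at 0.164%, 0.728%, 0.993% and 0.895%, and Pdgfra at 86.7%, 93.8%, 92.5% and 93.4% of the receptors. Pdgfb was then at 10.2% in DNTCF4 and 12.8% in DNTCF4_EZH2, and Pdgfc at 23.2% in Vector and 11.6% in DNTCF4_EZH2. Depth limits Pdgfd, with 20 counts over the Vector libraries.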
